A study of Mus musculus with 24 samples.

Results

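Alveolar type 1 cells were followed in whole mouse lung through 8 genes that mark them: Ager, Aqp5, Hopx, Rtkn2, Clic5, Pdpn, Akap5 and Emp2. The array features annotated to these symbols were taken, and where a gene had more than 1 feature the brightest was used. The members are 8 of the 20728 named genes measured, and all 8 were found. C57BL/6 mice, aged 9 to 12 weeks per the labels, were given PBS or bleomycin, a drug that breaks DNA and is used to model lung fibrosis. They also received a control gapmer, or gapmer 1 or gapmer 3 against the long noncoding RNA Dnm3os, which lies antisense within Dnm3. Gapmers are antisense oligonucleotides through which RNase H cuts a chosen RNA. The 6 groups were PBS with the control gapmer, PBS with gapmer 1 and PBS with gapmer 3, of 3 arrays each, and bleomycin with each of the same 3 gapmers, of 5 arrays each. All mice thus carried a gapmer, and no mouse without one was included. No genotype is given beyond the strain, and neither dose, time after bleomycin nor sex is stated in the sources used here. Because the labels do not identify animals, p-values reflect spread among these samples only, part of which may be technical.

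Alveolar type 1 cells are the large, thin epithelial cells that cover most of the gas exchange surface and lie against the capillaries. They share the alveolus with cuboidal type 2 cells, which make surfactant and replace type 1 cells after injury. During that replacement, type 2 cells pass through a transitional state that is rich in keratins. The 8 members fall into surface proteins (Ager, Aqp5, Emp2, Pdpn), proteins tied to the cytoskeleton or to signalling (Clic5, Akap5, Rtkn2) and a transcriptional regulator (Hopx). None is restricted to type 1 cells throughout the body: Pdpn is also known in lymphatic endothelium, mesothelium and fibroblasts, Rtkn2 in T cells, Hopx in heart and T cells, and Clic5 and Emp2 in other epithelia and in endothelium.

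Values are log2 intensities, on which a difference of 1 is a doubling, and the number of arrays limits their precision. They ran from 5.03 to 18.25, and the lowest value of any member on any array was 8.91, against 6.11 at the 25th percentile of gene means. Dnm3os, the silenced RNA, lay at 6.90 ± 0.17 (SD, n = 5) in bleomycin mice with the control gapmer, 6.18 ± 0.19 (n = 5) with gapmer 1 and 6.40 ± 0.22 (n = 5) with gapmer 3. These levels were 0.72 and 0.50 lower with gapmers 1 and 3 on the log2 scale (limma adjusted p = 0.000186 and 0.00293). This was the brightest of 3 Dnm3os features: the second read 6.38, 6.10 and 6.17 in the same groups and the third 5.81, 5.80 and 5.72, all near the dim end of the arrays. In PBS mice Dnm3os was not called with gapmer 1 (adjusted p = 0.0882) or gapmer 3 (adjusted p = 0.577). RNA integrity numbers averaged between 9.03 and 9.68 per group. In a lung homogenate, fewer type 1 cells and less RNA per type 1 cell cannot be told apart.

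The proximal promoters of the members are shown because 7 of the 8 fell with bleomycin under the control gapmer, while Pdpn rose. RefSeq windows on build GRCm38.p6, from 250 bases before to 50 after the start of a gene, were found for 7 of the 8 members. The 3 members whose 250 upstream bases overlap no annotated gene were Hopx, Emp2 and Pdpn, and these bases are printed in the direction of transcription. Capitals mark the matches to the 5 motifs searched on both strands.
Hopx, chr5:77115124-77115373, minus strand: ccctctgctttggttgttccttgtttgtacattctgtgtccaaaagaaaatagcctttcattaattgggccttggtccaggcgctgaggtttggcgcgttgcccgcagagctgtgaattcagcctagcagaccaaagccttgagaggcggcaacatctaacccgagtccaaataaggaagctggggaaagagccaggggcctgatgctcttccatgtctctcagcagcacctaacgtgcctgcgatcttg
Emp2, chr16:10313969-10314218, minus strand: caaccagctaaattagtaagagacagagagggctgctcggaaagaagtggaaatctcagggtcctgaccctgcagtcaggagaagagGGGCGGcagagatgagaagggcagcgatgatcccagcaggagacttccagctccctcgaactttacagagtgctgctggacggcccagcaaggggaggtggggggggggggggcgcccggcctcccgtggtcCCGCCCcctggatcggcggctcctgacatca
Pdpn, chr4:143299565-143299814, minus strand: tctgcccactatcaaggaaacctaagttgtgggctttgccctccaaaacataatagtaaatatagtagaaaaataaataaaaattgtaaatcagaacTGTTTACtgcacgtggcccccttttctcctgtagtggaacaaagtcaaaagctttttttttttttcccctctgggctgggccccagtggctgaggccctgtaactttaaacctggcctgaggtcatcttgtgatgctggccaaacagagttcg
The Hopx run had no match in these bases, and its GC content was 52.4%. The Emp2 run, at 62.8% GC, held GGGCGG, bound by KLF and SP factors, at base -163 from the start and on the opposite strand at -31. The Pdpn run, at 43.2% GC, held TGTTTAC, bound by FOXA factors, at -153. Over the whole windows of 300 bases, GGGCGG was found for 5 of the 7 members (Aqp5, Clic5, Pdpn, Akap5 and Emp2), and 35.7% of all 32851 windows held it. TGTTTAC was found for Pdpn alone among the members and in 3.65% of all windows. CAAGTG, bound by NKX2-1, was found in 1 of the 2 windows of Hopx and in 13.6% of all windows. GGAATG, bound by TEAD factors, and AGATAA, bound by GATA factors, were found for no member and in 14.7% and 11.2% of all windows. No motif searched contains another, and a match describes the sequence only.

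Bleomycin with the control gapmer lowered 7 of the 8 members and raised Pdpn. Rtkn2, Hopx and Clic5 fell most, by 1.91-fold, 1.89-fold and 1.80-fold, and Aqp5 least, by 1.24-fold. All 8 were called, that is, passed 0.05 in limma after Benjamini-Hochberg adjustment over all genes. Over all genes, 33.8% were called in this comparison, 19.3% lower and 14.5% higher. The median difference of the members was -0.60, beside -0.02 over all genes.

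**Figure D1:**
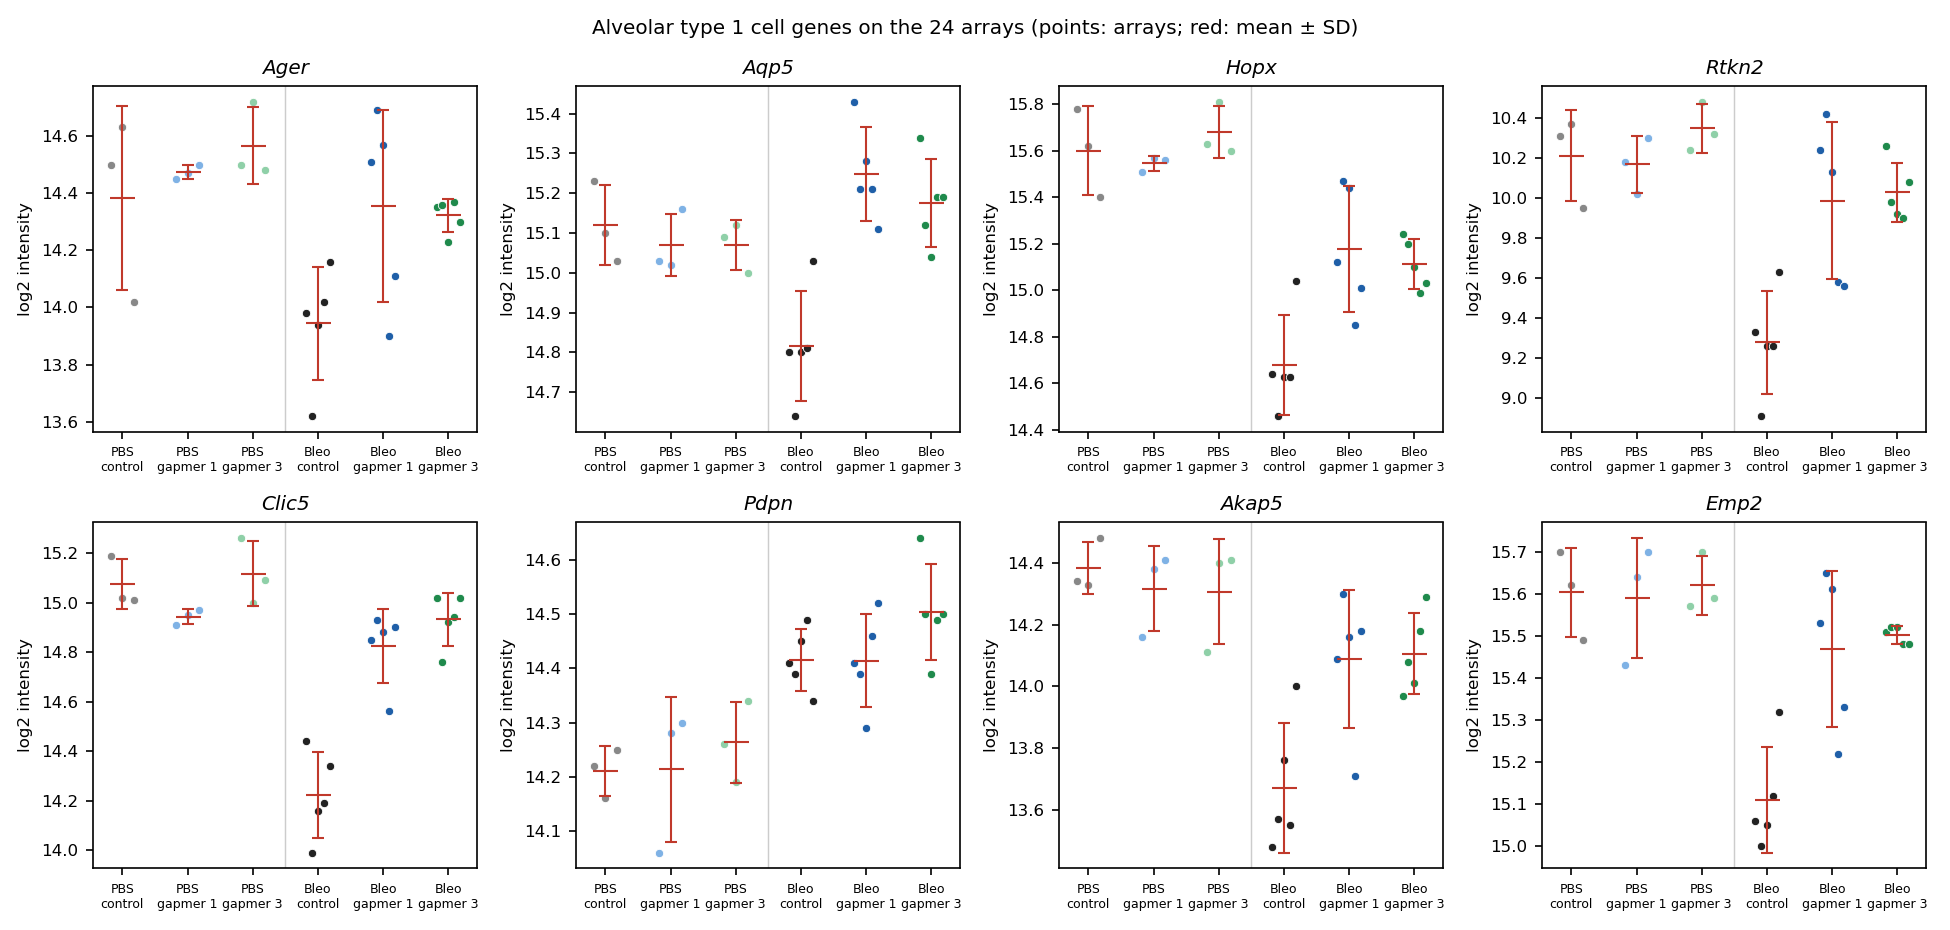
Levels of the 8 members, in log2 intensity, in the 6 groups; points are arrays and red bars the mean ± SD (n = 3 per PBS group, 5 per bleomycin group). The group of bleomycin with the control gapmer has the lowest mean for every member except Pdpn, whose 5 arrays there, from 14.34 to 14.49, lie above the 3 arrays of PBS with the control gapmer.

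Among the surface proteins, Ager, the receptor for advanced glycation end products, read 14.50, 14.63 and 14.02 in the PBS mice with the control gapmer. In bleomycin mice with the control gapmer it read 13.98, 13.62, 13.94, 14.02 and 14.16. Of the bleomycin arrays, 4 lay below all PBS arrays and the highest lay above the lowest PBS array, so the groups overlapped. The difference was -0.44 (SE 0.15, 95% interval -0.76 to -0.13, limma adjusted p = 0.028). The call was lost when PBS control array 1, PBS control array 2 or bleomycin control array 2 was left out, with adjusted p of 0.111, 0.166 and 0.0777. It was also lost with the RNA integrity number as a covariate, at -0.36 (adjusted p = 0.0858).

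Aqp5, the water channel of the alveolar surface, read 15.23, 15.10 and 15.03 in the same PBS group and 14.80, 14.64, 14.80, 14.81 and 15.03 in the bleomycin group. Again 4 of 5 bleomycin arrays were below all PBS arrays, with the fifth at the level of the lowest of them. Aqp5 fell by 0.31 (SE 0.08, limma adjusted p = 0.00703), and without PBS control array 1 its adjusted p was 0.0545. Its other array feature differed by -0.20 (adjusted p = 0.109 when every feature was tested).

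Emp2, a tetraspan membrane protein, read 15.70, 15.62 and 15.49 with PBS and 15.06, 15, 15.05, 15.12 and 15.32 with bleomycin. All bleomycin arrays were below all PBS arrays. Emp2 fell by 0.49 (SE 0.09, limma adjusted p = 0.000191). Its other feature did not show this: it differed by 0.09 (SE 0.62, adjusted p = 0.937), with arrays scattered from 11.84 to 13.29 under PBS and from 10.07 to 13.26 under bleomycin.

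**Figure D2:**
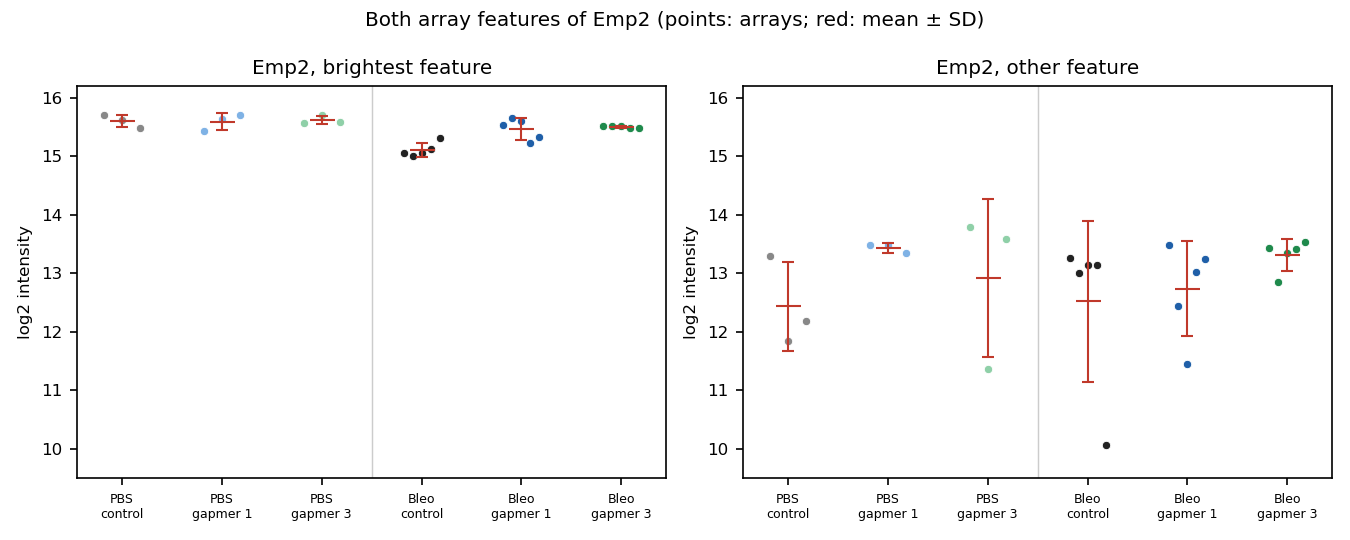
Log2 intensity of the brightest and the other array feature of Emp2 in the 6 groups; points are arrays and red bars the mean ± SD. The SD within groups is at most 0.18 for the brightest feature and reaches 1.37 for the other, where 1 bleomycin control array lies at 10.07.

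Pdpn, podoplanin, a mucin-type glycoprotein linked to the actin cytoskeleton, went the other way. It read 14.22, 14.16 and 14.25 with PBS and 14.41, 14.39, 14.45, 14.49 and 14.34 with bleomycin, so that all bleomycin arrays were above all PBS arrays. The rise was 0.20 (SE 0.07, 95% interval 0.06 to 0.35, limma adjusted p = 0.0234), or 1.15-fold. The other Pdpn feature rose by 0.39 (adjusted p = 0.00299). The call on the brighter feature was lost without PBS control array 1, PBS control array 2 or bleomycin control array 4, with adjusted p of 0.0563, 0.0876 and 0.0542. With the RNA integrity number as a covariate it was lost at 0.16 (adjusted p = 0.0764). Without PBS control array 1, which Ager, Aqp5 and Pdpn all needed, 5 of 8 members were called.

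Of the proteins tied to the cytoskeleton or signalling, Clic5, a chloride intracellular channel protein associated with actin, read 15.19, 15.02 and 15.01 with PBS. It read 14.44, 13.99, 14.16, 14.19 and 14.34 with bleomycin. The groups were far apart, with the highest bleomycin array at 14.44 and the lowest PBS array at 15.01. Clic5 fell by 0.85 (SE 0.10, 95% interval -1.05 to -0.64, limma adjusted p = 8.4e-07).

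Akap5, a scaffold that anchors protein kinase A near the membrane, read 14.34, 14.33 and 14.48 with PBS and 13.48, 13.57, 13.76, 13.55 and 14 with bleomycin. The arrays did not overlap, and the bleomycin array nearest to PBS was array 5. Akap5 fell by 0.72 (SE 0.12, limma adjusted p = 0.000103), or 1.64-fold. Rtkn2 read 10.31, 10.37 and 9.95 with PBS and 9.33, 8.91, 9.26, 9.26 and 9.63 with bleomycin. Again the arrays did not overlap, with bleomycin array 2 lowest and array 5 highest. Rtkn2 fell by 0.94 (SE 0.17, 95% interval -1.30 to -0.57, limma adjusted p = 0.000217).

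Hopx, a small homeodomain protein that does not bind DNA itself and marks mature type 1 cells, read 15.78, 15.62 and 15.40 with PBS. With bleomycin it read 14.64, 14.46, 14.63, 14.63 and 15.04. No arrays overlapped. Hopx fell by 0.92 (SE 0.13, 95% interval -1.19 to -0.65, limma adjusted p = 1.15e-05), and its other feature by 0.65 (adjusted p = 9.36e-05). In all, the arrays of 6 of the 8 members did not overlap, 5 lower and Pdpn higher, where 18.2% of all genes did not overlap and were lower and 15.1% did not overlap and were higher. Hopx, Rtkn2, Clic5 and Akap5 kept this call in each of 37 other settings, which include leaving out each array in turn.

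Within the bleomycin mice, each gapmer against Dnm3os was next set against the control gapmer, which asks whether silencing alters the injured lung. These comparisons share the 5 bleomycin control arrays with each other and with the comparison above, so their values are given side by side and are not independent. With gapmer 1, 7 of 8 members were higher than with the control gapmer, by 1.28-fold to 1.64-fold, and Pdpn was not called. With gapmer 3, 6 of 8 were higher, by 1.28-fold to 1.69-fold, and Ager and Pdpn were not called. Over all genes, 10.5% were called with gapmer 1 (5.47% higher) and 13.2% with gapmer 3 (5.63% higher). The median difference of the members was 0.43 with gapmer 1 and 0.41 with gapmer 3, beside 0.02 and 0.01 over all genes.

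Clic5 read 14.85, 14.93, 14.88, 14.56 and 14.90 in bleomycin mice with gapmer 1 and 15.02, 14.76, 14.92, 14.94 and 15.02 with gapmer 3. All 10 arrays were above the 5 bleomycin control arrays, which reached 14.44. Clic5 was 0.60 higher with gapmer 1 (SE 0.08, 95% interval 0.43 to 0.77, limma adjusted p = 9.76e-05) and 0.71 higher with gapmer 3 (SE 0.08, 0.53 to 0.88, adjusted p = 1.04e-05). Aqp5 read 15.43, 15.21, 15.28, 15.21 and 15.11 with gapmer 1 and 15.34, 15.12, 15.04, 15.19 and 15.19 with gapmer 3. These arrays too were all above the bleomycin control arrays, the highest of which was 15.03. Aqp5 was 0.43 higher with gapmer 1 (limma adjusted p = 0.00063) and 0.36 higher with gapmer 3 (adjusted p = 0.00212). Its other feature was 0.24 and 0.27 higher (adjusted p = 0.0599 and 0.0257).

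Rtkn2 had the largest differences. It read 10.24, 10.42, 10.13, 9.58 and 9.56 with gapmer 1, where arrays 4 and 5 lay below bleomycin control array 5 at 9.63. With gapmer 3 it read 10.26, 9.98, 9.92, 9.90 and 10.08, all above the bleomycin control arrays. Rtkn2 was 0.71 higher with gapmer 1 (SE 0.15, 95% interval 0.40 to 1.02, limma adjusted p = 0.00403) and 0.75 higher with gapmer 3 (SE 0.15, 0.44 to 1.07, adjusted p = 0.00177).

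Hopx read 15.12, 15.47, 15.44, 14.85 and 15.01 with gapmer 1 and 15.24, 15.20, 15.10, 14.99 and 15.03 with gapmer 3. In each gapmer group 3 of 5 arrays were above all bleomycin control arrays, and the rest overlapped them through control array 5. Hopx was 0.50 higher with gapmer 1 (SE 0.11, limma adjusted p = 0.00682) and 0.43 higher with gapmer 3 (SE 0.11, adjusted p = 0.0136). Its other feature was 0.44 and 0.61 higher (adjusted p = 0.00498 and 0.000228). Without bleomycin control array 2 the adjusted p of Hopx with gapmer 3 was 0.0507.

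Akap5 read 14.09, 14.30, 14.16, 13.71 and 14.18 with gapmer 1 and 13.97, 14.08, 14.01, 14.18 and 14.29 with gapmer 3. All but 1 array of each group were above the bleomycin control arrays. Akap5 was 0.42 higher with gapmer 1 (SE 0.11, limma adjusted p = 0.014, or 0.0504 without gapmer 1 array 2) and 0.44 higher with gapmer 3 (SE 0.11, adjusted p = 0.00857). Emp2 read 15.53, 15.65, 15.61, 15.22 and 15.33 with gapmer 1 and between 15.48 and 15.52 on all 5 arrays with gapmer 3. The gapmer 3 arrays were all above the bleomycin control arrays, and 1 gapmer 1 array was not. Emp2 was 0.36 higher with gapmer 1 (SE 0.08, limma adjusted p = 0.00515) and 0.39 higher with gapmer 3 (SE 0.08, adjusted p = 0.0018). Its other, widely scattered feature gave 0.21 and 0.79 (adjusted p = 0.879 and 0.391).

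Ager was the least certain of these. It read 14.51, 14.69, 14.57, 13.90 and 14.11 with gapmer 1, where arrays 4 and 5 lay among the bleomycin control arrays. With gapmer 3 it read 14.35, 14.36, 14.23, 14.37 and 14.30, all above those control arrays. The difference was 0.41 with gapmer 1 (SE 0.13, 95% interval 0.14 to 0.69, limma adjusted p = 0.0462) and 0.38 with gapmer 3 (SE 0.13, 0.10 to 0.65, adjusted p = 0.0615). Over 24 fits that each left out 1 array, the gapmer 1 call was lost in 18, with the adjusted p between 0.00476 and 0.158, and the largest value came without bleomycin control array 2. A gapmer 3 call was gained in 4 of these fits, with the adjusted p between 0.0292 and 0.19.

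Pdpn read 14.41, 14.39, 14.29, 14.46 and 14.52 with gapmer 1 and 14.64, 14.50, 14.39, 14.49 and 14.50 with gapmer 3. These arrays overlapped the bleomycin controls in both groups. The difference was 0.00 with gapmer 1 (95% interval -0.12 to 0.12, limma adjusted p = 0.994) and 0.09 with gapmer 3 (-0.03 to 0.21, adjusted p = 0.378). The other Pdpn feature gave -0.06 and 0.01 (adjusted p = 0.732 and 0.948). Across the members, 2 did not overlap the bleomycin controls with gapmer 1 (Aqp5 and Clic5) and 5 with gapmer 3 (Ager, Aqp5, Rtkn2, Clic5 and Emp2), all higher. Over all genes the share not overlapping and higher was 2.87% with gapmer 1 and 4.83% with gapmer 3.

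**Figure D3:**
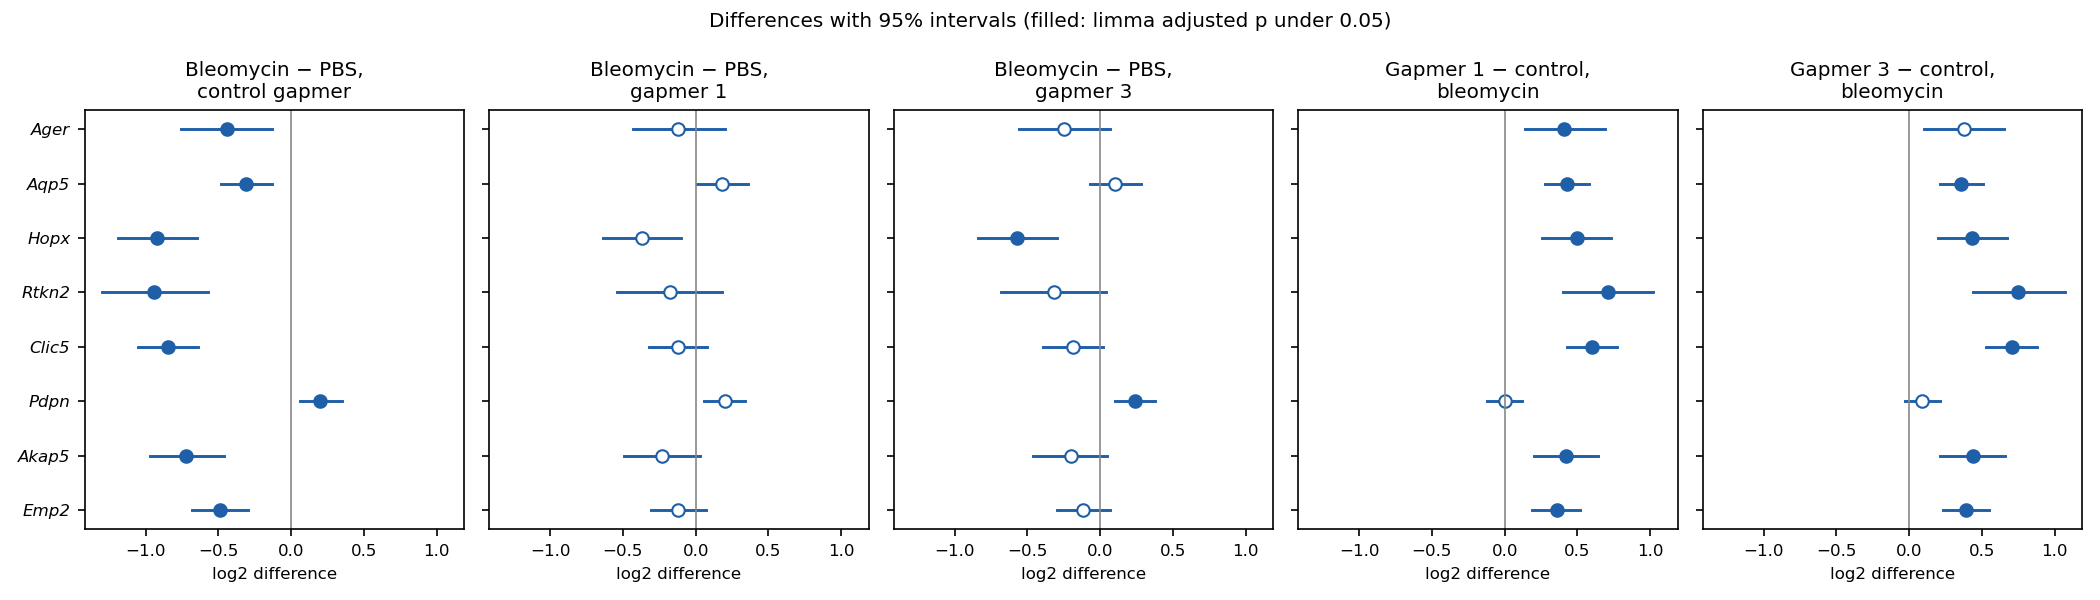
Differences in log2 intensity of the 8 members in 5 comparisons, with 95% intervals; filled points have a limma adjusted p under 0.05. Bleomycin against PBS gives -0.94 for Rtkn2 under the control gapmer and -0.18 and -0.32 under gapmers 1 and 3, while Pdpn lies between 0.20 and 0.24 in all 3.

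The gapmers were also compared with each other in bleomycin mice, at doses the sources used here do not give. The differences of gapmer 3 from gapmer 1 ran from -0.08 for Aqp5 to 0.11 for Clic5. None of the 8 members was called by limma, and none had an unadjusted p under 0.05. Over all genes 0.0% were called. The 95% intervals left room for differences of some size, from -0.31 to 0.24 for Ager and from -0.27 to 0.36 for Rtkn2, while that of Pdpn ran from -0.03 to 0.21.

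In PBS mice neither gapmer gave a called difference from the control gapmer. Differences of the 8 members' brightest features lay between -0.13 and 0.18 over both gapmers, and none of the 16 had an unadjusted limma p under 0.05. Over all genes 1.11% were called with gapmer 1 and 0.0338% with gapmer 3. The other feature of Emp2 differed by 1 with gapmer 1 (SE 0.69, adjusted p = 0.491). Clic5 was the member whose gapmer 1 arrays, at 14.91, 14.95 and 14.97, all lay below the PBS control arrays, where 13.7% of all genes did not overlap and were lower.

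Bleomycin was also set against PBS in mice of the same silencing gapmer. Under gapmer 1 no member was called by limma, 3 had an unadjusted p under 0.05, and 9.48% of all genes were called. Hopx differed by -0.37 (adjusted p = 0.0822), Pdpn by 0.20 (adjusted p = 0.0664) and Aqp5 by 0.18 (adjusted p = 0.206), while Ager, Clic5 and Emp2 differed by -0.12 each, Rtkn2 by -0.18 and Akap5 by -0.23. Hopx passed the threshold without bleomycin control array 5 or gapmer 1 bleomycin array 2 or 3 (adjusted p = 0.0487, 0.0303 and 0.0379), and Pdpn without the last of these (adjusted p = 0.0329), so the count was at most 2.

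Under gapmer 3 bleomycin changed 2 of 8 members, where 13.9% of all genes were called. Hopx fell by 0.57 (SE 0.13, limma adjusted p = 0.00446), from 15.63, 15.81 and 15.60 in PBS mice, and Pdpn rose by 0.24 (SE 0.07, adjusted p = 0.0188), from 14.26, 14.19 and 14.34. No array of either gene overlapped between these groups, nor of Ager or Emp2, where 12.0% of all genes did not overlap and were lower and 10.3% did not overlap and were higher. Clic5 differed by -0.19 (adjusted p = 0.237), and the other 5 members lay between -0.32 and 0.10 with no call. Without PBS gapmer 3 array 1 or 2, or bleomycin gapmer 3 array 1, Pdpn lost its call (adjusted p = 0.0568, 0.112 and 0.0513) and Hopx alone was called. Both calls depended on the feature used. The other Hopx feature differed by -0.33 and the other Pdpn feature by 0.20 (limma adjusted p = 0.0574 and 0.193 when every feature was tested).

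Whether the bleomycin response itself differed with the gapmer was tested with an interaction term. With gapmer 1 the response of Clic5 was 0.73 higher than with the control gapmer (SE 0.14, limma adjusted p = 0.00459) and that of Aqp5 0.49 higher (SE 0.12, adjusted p = 0.0181), where 7.7% of all genes were called, 4.97% higher. The Aqp5 call depended on the feature used. Its other feature gave 0.20 (adjusted p = 0.355 when every feature was tested), and the mean of its features gave 0.35 (adjusted p = 0.0568). With gapmer 3 the response of Clic5 was 0.66 higher (SE 0.14, adjusted p = 0.013), where 3.09% were called, 1.45% higher. The other tests of members missed the threshold. The limma estimates for Rtkn2 were 0.75 with gapmer 1 and 0.62 with gapmer 3 (adjusted p = 0.0617 and 0.172), for Hopx 0.55 and 0.35 (0.0711 and 0.329), and for Pdpn 0.00 and 0.04 (0.992 and 0.892). They were 0.48 and 0.51 for Akap5 (adjusted p = 0.0918 and 0.109), 0.37 and 0.38 for Emp2 (0.074 and 0.106), 0.33 and 0.19 for Ager (0.379 and 0.694), and 0.41 for Aqp5 with gapmer 3 (0.0616). The gapmer 1 count rose from 2 to 6 without bleomycin control array 5 or without gapmer 1 bleomycin array 4. It fell to 1 without PBS control array 1, where Aqp5 had an adjusted p of 0.0603, and was 3 without gapmer 1 bleomycin array 5. The gapmer 3 count rose from 1 to 4 without bleomycin control array 5. Weighting the arrays by their fit gave 7 and 5 of 8 members with gapmers 1 and 3.

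The order of the groups was therefore alike for 7 of the 8 members: bleomycin with the control gapmer was lowest, and its gap to the next group was larger than the SD of either. Most other neighbours in the order did not differ beyond their spread. For Hopx, the bleomycin groups with gapmers 3 and 1 formed a middle step at 15.11 ± 0.11 (SD, n = 5) and 15.18 ± 0.27 (n = 5), below 15.55 ± 0.03 (n = 3) in PBS mice with gapmer 1. For Aqp5, bleomycin mice with gapmer 1 had the highest mean, 15.25 ± 0.12 (SD, n = 5), beside 15.12 ± 0.10 (n = 3) in PBS control mice. For Pdpn the 3 PBS groups, at 14.21 to 14.26, came first and the 3 bleomycin groups, at 14.41 to 14.50, last.

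Within groups, the members other than Pdpn tended to be high or low on the same arrays. Among bleomycin control arrays, array 2 was lowest for 6 members and array 5 highest for 6. Among bleomycin arrays with gapmer 1, array 2 was highest for 6 members and array 4 lowest for 5. Deviations from the group means over the 24 arrays gave Pearson correlations of 0.22 to 0.89 (median 0.55) for the 21 pairs without Pdpn, and of -0.34 to 0.02 (median -0.21) for the 7 pairs with Pdpn. These are descriptions: each pair shares its arrays and RNA.

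Array 4 of the bleomycin mice with gapmer 1 stood apart in other lists too. The mean of the 8 members, relative to PBS control mice, was -0.39 on it, against -0.05, 0.06, -0.03 and -0.23 on the other 4. Its transitional epithelium score was 0.98, its fibroblast score 0.53 and its macrophage score 1.35, each the highest of that group. Its RNA integrity number was 9.9. Its Dnm3os level, 6.48, was also the highest of the group. With gapmer 3 the bleomycin array highest in Dnm3os, at 6.78, had a member score of -0.09, in a group that ran from -0.18 to -0.03. Deviations of Dnm3os and of the member mean from the group means correlated at -0.292 over the 24 arrays. A link between them was not tested. Without array 4 of the gapmer 1 group the same 7 members were called higher with gapmer 1, and 6 rather than 2 passed the gapmer 1 interaction test.

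The genes whose levels ran most like the mean of the 8 members were named by Pearson correlation over the 24 arrays, with each member centred on its own mean. They were Misp3 (0.962), Slc44a3 (0.962), Mtcl1 (0.961), D230025D16Rik (0.954), Slc4a5 (0.954) and Zfyve21 (0.953). The arrays fall into 6 groups that share treatment, so much of this likeness is between groups. After group means were removed, the nearest genes were Lmo7 (0.922), Misp3 (0.918), Mtcl1 (0.910), Myh14 (0.905), Afap1l1 (0.905) and Ago4 (0.904). Misp3 differed by -1.01 with bleomycin under the control gapmer, and by 0.72 and 0.66 with gapmers 1 and 3 in bleomycin mice.

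A list of 22 other genes of type 1 cells was more divided than the members in its response to bleomycin. Not all of these genes are restricted to type 1 cells, and Sec14l3 was also listed here as a gene of airway epithelium. With the control gapmer, 9 fell and 5 rose, with a median of -0.11, where 19.3% of all genes were lower and 14.5% higher. Those that fell included Cyp2b10, a cytochrome P450, at -1.24 (SE 0.19, limma adjusted p = 2.25e-05), Sema3e, a guidance factor for vessels and nerves, at -1.12 (SE 0.14, adjusted p = 1.73e-06), and Pxdc1 (adjusted p = 0.00272). The 5 that rose were Spock2, an extracellular proteoglycan (0.97), Ndnf (0.88), Gramd2 (0.62), Igfbp2, an insulin-like growth factor binding protein (0.50), and Krt7, a keratin (0.46). Igfbp2 and Krt7 were picked out after their values were seen.

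In bleomycin mice, 12 of the 22 were higher with gapmer 1 and 14 with gapmer 3, with medians of 0.37 and 0.41. Of all genes, 5.47% and 5.63% were higher. No gene of the list was called lower by limma in either comparison, nor had an unadjusted p under 0.05 in that direction. Cyp2b10 was 0.75 and 0.74 higher with gapmers 1 and 3 (limma adjusted p = 0.00471 and 0.00389), Sema3e 0.56 and 0.68 (0.0037 and 0.000517), and Vegfa, the growth factor through which type 1 cells signal to capillaries, 0.47 and 0.55 (0.000431 and 4.91e-05). Lama3, a laminin chain of the basement membrane, was -0.04 with bleomycin under the control gapmer and 0.51 higher with gapmer 1 (adjusted p = 0.00616). In PBS mice Lama3 read 10.75 ± 0.16 (SD, n = 3) with the control gapmer and 11.11 ± 0.14 (n = 3) with gapmer 1, and it was not called. Spock2, which rose with bleomycin, differed by 0.05 with either silencing gapmer (adjusted p = 0.855 and 0.816), as 13.43 in the control group became 13.48 in both others. In the interaction test 4 of the 22 were called with gapmer 1 and 3 with gapmer 3, all higher. Of all genes, 4.97% and 1.45% were called higher there. Sema3e passed with both gapmers, at 0.89 and 0.86 (adjusted p = 0.00954 and 0.0184), as did Cav2, a caveolin, at 0.61 and 0.48 (adjusted p = 0.00213 and 0.0171). With bleomycin under the control gapmer Cav2 fell by 0.92, where 14 of 15 capillary endothelial genes and 19.3% of all genes fell.

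**Figure D4:**
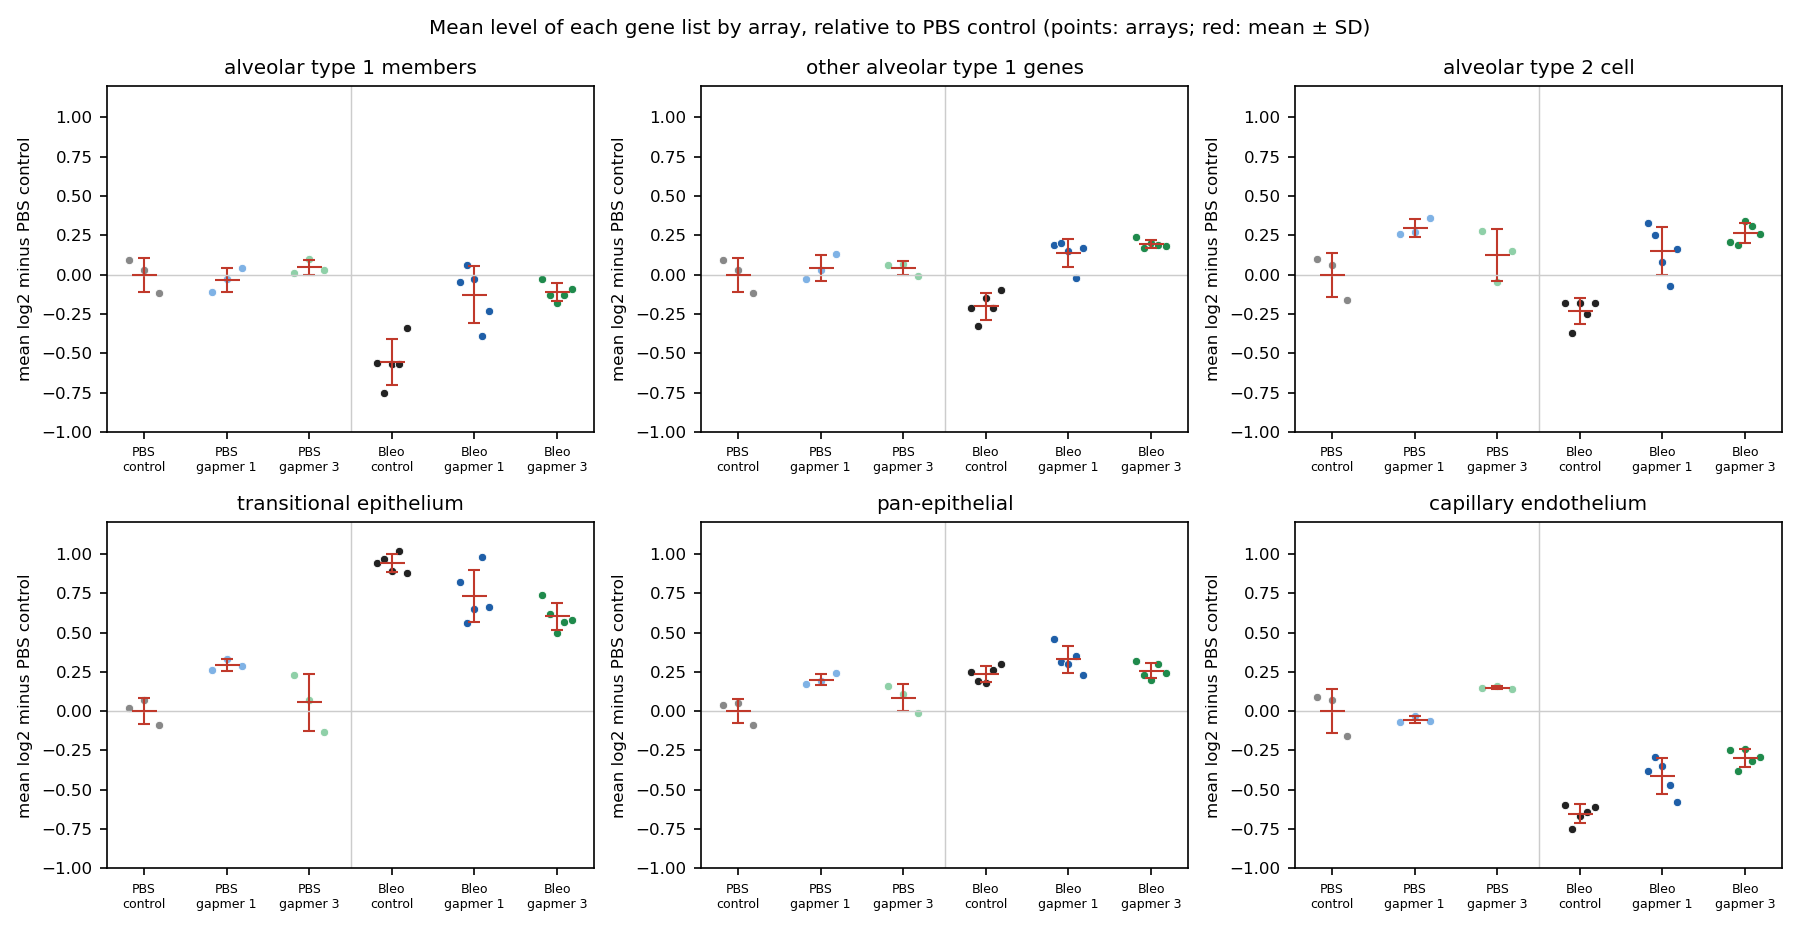
Mean log2 intensity of the genes of selected lists, relative to PBS mice with the control gapmer, in the 6 groups; points are arrays and red bars the mean ± SD. The 8 members lie at -0.56 in bleomycin mice with the control gapmer and at -0.13 and -0.11 with gapmers 1 and 3, while the transitional epithelium list stays above PBS in all 3, at 0.94, 0.73 and 0.60.

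Of 20 genes listed for alveolar epithelial fate, which include targets of the regulator YAP as well as regulators, bleomycin lowered 10 and raised 3 under the control gapmer. Of all genes, 19.3% were lower and 14.5% higher. Among them were Etv5, a transcription factor needed to keep type 2 cells, at -0.93 (SE 0.16, limma adjusted p = 9.96e-05) and Ccn2, a target of YAP, at 0.81 (SE 0.17, adjusted p = 0.000617). In bleomycin mice, 7 were higher and 2 lower with gapmer 1, and 7 were higher and 3 lower with gapmer 3. Of all genes, 10.5% were called with gapmer 1 (5.47% higher) and 13.2% with gapmer 3 (5.63% higher). Nkx2-1, the lineage factor of lung epithelium, was 0.44 and 0.62 higher with gapmers 1 and 3 (adjusted p = 0.0102 and 0.00044). Ankrd1, another target of YAP, was 0.97 and 1.03 lower with gapmers 1 and 3 (adjusted p = 9.83e-05 and 3.55e-05). Ankrd1 and Ccn2 were among the 3 raised with bleomycin, and they were the 2 lower with gapmer 1. Which cells of the lung made them was not tested, so these counts need not describe the epithelium.

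Other epithelial lists were set beside the members. Of all genes, 19.3% were lower and 14.5% higher with bleomycin under the control gapmer. In bleomycin mice, 10.5% of all genes were called with gapmer 1 (5.47% higher) and 13.2% with gapmer 3 (5.63% higher). Of 15 type 2 cell genes, 6 fell with bleomycin under the control gapmer, and 8 and 11 were higher with gapmers 1 and 3. Their median difference with gapmer 1 was 0.35 in bleomycin mice and 0.29 in PBS mice. In PBS mice none was called with gapmer 1, where 1.11% of all genes were, but 5 had an unadjusted limma p under 0.05, all higher. With gapmer 3 the medians were 0.60 and 0.03. The interaction medians were 0.08 with gapmer 1 and 0.28 with gapmer 3. Sftpa1, a surfactant protein, fell most of the list, by 0.89 (limma adjusted p = 0.000182), and was 0.62 and 0.63 higher with the gapmers (adjusted p = 0.00646 and 0.00412). With bleomycin, 9 of the 15 were not called. Sftpc, near the highest value on the arrays, read 17.99 in PBS control mice and 18.03, 17.94 and 17.99 in bleomycin mice with the control gapmer, gapmer 1 and gapmer 3. Sftpd read 16.92, 17.03, 17.36 and 17.39 in the same groups. All 12 measured genes of the transitional list rose with bleomycin, with Cldn4, a tight junction claudin, at 2.32 (adjusted p = 1.11e-08). With gapmer 1, 2 of the 12 were lower, and with gapmer 3, 5 were, with Cldn4 0.93 and 1.24 lower (adjusted p = 0.000836 and 3.15e-05). In PBS mice, 2 of the 12 were called higher with gapmer 1, Cdkn1a by 0.93 and Sfn by 0.85 (limma adjusted p = 0.0223 and 0.0498). Krt8, the keratin often used to name this state, rose by 0.64 and read 14.36 ± 0.05 (SD, n = 5), 14.39 ± 0.13 (n = 5) and 14.15 ± 0.08 (n = 5) in bleomycin mice with the control gapmer, gapmer 1 and gapmer 3. Of 16 general epithelial genes, 9 rose and 2 fell with bleomycin.

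Markers of other cells that express some members moved as well. The shares of all genes to set beside these counts are 19.3% lower and 14.5% higher with bleomycin under the control gapmer. With gapmers 1 and 3 in bleomycin mice they are 10.5% called (5.47% higher) and 13.2% called (5.63% higher). Of 15 capillary endothelial genes, 14 fell with bleomycin under the control gapmer (median -0.56), and 2 and 9 were higher with gapmers 1 and 3. Their mean score ran from -0.75 to -0.60 in bleomycin control mice and from -0.16 to 0.09 in PBS control mice. Beside Pdpn, 3 of 7 lymphatic endothelial genes rose with bleomycin and 1 fell, with scores of 0.30 to 0.51 against -0.02 to 0.01. Thy1, also known in fibroblasts and T cells, rose most, by 1.16. In bleomycin mice 2 of 7 were lower with each gapmer, and the score was 0.02 and 0.05, while Pdpn differed by 0.00 and 0.09. Of 8 genes of the mesothelium, another layer that makes Pdpn, 7 fell and 1 rose. Of 12 fibroblast genes, 6 rose and 1 fell with bleomycin (median 0.50), and their score was 0.56 with the control gapmer and 0.32 and 0.33 with gapmers 1 and 3. Beside Rtkn2 and Hopx, 9 of 11 T cell genes rose with bleomycin (median 0.93) while Rtkn2 and Hopx fell, and 10 and 9 of 11 were lower with gapmers 1 and 3 while both were higher. Beside Hopx, 4 of 8 cardiac genes fell with bleomycin (median -0.55) and none of the 8 was called with either gapmer by limma, where 2 had an unadjusted p under 0.05 with gapmer 1 and 0 with gapmer 3. What part these cells have in the values of the members, or of the 22 other type 1 genes, was not tested.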

How the data were processed

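Whole-lung RNA was measured on 24 one-colour Agilent arrays (Cy3). The deposited values are log2 intensities that the authors had already normalised between arrays, as the array medians of 6.485 to 6.495 show. The submitters' processing notes name limma, while the background correction is not given in the sources used here. Of 62976 features, 31465 carried 1 gene symbol and 31511 none. Symbols were updated through a RefSeq table for GRCm38.p6 (2908 features by accession, 349 by synonym, 5 kept as given), and the brightest feature per gene was used for 20728 genes, with no filter on level. limma 3.58.1 in R 4.3.3 fitted all 24 arrays with 6 group means (lmFit and eBayes, two-sided, 18 residual and 3.26 prior degrees of freedom). A gene was called below 0.05 after Benjamini-Hochberg adjustment over the 20728 genes in a comparison.

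A list's score averages its genes' log2 values after subtracting each gene's mean in PBS control mice. Named genes are the members, Dnm3os, up to 4 called genes with the largest difference per list and comparison, and the 6 most similar genes by each of 2 correlations. Igfbp2, Krt7 and Sftpc lie outside this rule and were chosen after their values were seen. The members and lists were chosen with earlier results of these data known. On simulated data the fit recovered 8% to 46% of genes changed 1.25-fold and 54% to 88% of those changed 1.5-fold, over 8 comparisons of 20728 genes. The simulated noise was independent between genes. The share of genes changed was smaller than the share called in most of the real comparisons, so these rates need not hold there. The alternatives changed 1 choice at a time and left out each array in turn. Tables and plots were made with pandas 2.3.3, matplotlib 3.10.9 and NumPy 2.4.6 in Python 3.11.15.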

Additional observations from a re-analysis of the deposited data

Results flagged for a closer look

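Single arrays far from the rest of their group were looked for in 36 groups of 5 arrays, and 3 were found, where chance gives about 1 in 20. For Clic5, array 4 of the bleomycin mice with gapmer 1 lay at 14.56, below the next array at 14.85. For the Emp2 feature that was not used, array 5 of the bleomycin mice with the control gapmer lay at 10.07, below the next at 13, and array 2 of the bleomycin mice with gapmer 3 lay at 12.85, below the next at 13.35.

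The response to bleomycin differed between a silencing gapmer and the control gapmer in 3 tests of the difference itself. It was 0.49 higher for Aqp5 and 0.73 higher for Clic5 with gapmer 1, and 0.66 higher for Clic5 with gapmer 3. By the other Aqp5 feature the gapmer 1 value was 0.20 and was not called (limma adjusted p = 0.355).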

How the results depend on the processing

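Over 37 other settings per comparison, the members called with bleomycin under the control gapmer numbered 5 to 8, against 8. In bleomycin mice they numbered 4 to 7 with gapmer 1, against 7, and 5 to 7 with gapmer 3, against 6. In PBS mice, and between the gapmers, the count was 0 throughout. Single values there are given only for the members' other features. By its other feature, Emp2 gave 0.48 with gapmer 3 in PBS mice (limma adjusted p = 0.86) and 0.58 between the gapmers (adjusted p = 0.999). Each array left out in turn gave 5 to 8 for bleomycin under the control gapmer, 5 to 7 for both silencing gapmers in bleomycin mice, 0 to 2 for bleomycin under gapmer 1, 1 to 2 under gapmer 3, and 1 to 6 and 1 to 4 for the interactions with gapmers 1 and 3. Fitting the compared groups alone gave 4 for gapmer 1 in bleomycin mice, 1 for bleomycin under gapmer 3 and 2 for the gapmer 3 interaction. Array weights gave 7 and 5 for the interactions with gapmers 1 and 3, the RNA integrity number gave 4 for the gapmer 1 interaction, and dim genes left out gave 2 for the gapmer 3 interaction. The mean of all features gave 2 for bleomycin under gapmer 1. The members' other features, chosen as a setting after seeing the data, gave 1 for the gapmer 1 interaction and 0 for bleomycin under gapmer 3.

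Deviations of same-numbered arrays had a median correlation of 0.07 over 51 pairs (-0.41 to 0.42), beside -0.03 for arrays of different numbers. Of the 51 pairs, 23 were over 0.1. The labels do not say what the numbers mark, so whether they pair the samples cannot be told. A replicate block gave 1 member for bleomycin under gapmer 3 and 2 for the gapmer 3 interaction, with Akap5 gained at 0.51 (limma adjusted p = 0.0401). It took Ager to -0.40 (adjusted p = 0.0706) and Pdpn to 0.19 (adjusted p = 0.0621) with bleomycin under the control gapmer. Ager lost its gapmer 1 call in bleomycin mice (0.41, adjusted p = 0.0574), Pdpn its call under gapmer 3 (0.23, adjusted p = 0.0571), and Akap5 was gained in the gapmer 1 interaction (0.48, adjusted p = 0.0349), making 3.

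Signs turned in these cases. Emp2 was 0.09 for bleomycin under the control gapmer by its other feature. For bleomycin under gapmer 3, Emp2 was 0.14 by the mean of its features and 0.40 by the other one, and for the gapmer 1 interaction -0.21 and -0.79. Pdpn was -0.08 and -0.19 by these for the gapmer 3 interaction, and 0.00 with array weights. Pdpn with gapmer 1 in bleomycin mice was 0.01 with the RNA integrity number and -0.03 to 0.03 with each array left out, and its gapmer 1 interaction -0.08 to 0.04. Ager was 0.00 with array weights for bleomycin under gapmer 1. The causes were not tested. The unknown identity of the animals, and the size of the PBS groups, limit all comparisons.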
